A study of Mus musculus with 10 samples.

Results

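Calcineurin, NFAT and the calmodulin kinases carry the calcium signal of the T cell receptor, and 10 mouse genes of this system were measured in mature thymocytes of the helper lineage, which keep CD4 alone (CD4SP), and of the cytotoxic lineage, which keep CD8 alone (CD8SP). They encode 3 catalytic calcineurin subunits (Ppp3ca, Ppp3cb, Ppp3cc), the regulatory subunit Ppp3r1, the transcription factors Nfatc1, Nfatc2 and Nfatc3, and the kinases Camk4, Camk2d and Camk2g. The genes were chosen by name, as 10 of 22957 genes with a value. Their transcripts were the RefSeq transcripts in the short-read tables plus assembled spliced transcripts sharing an intron with that gene and no other, 77 in CD4SP and 81 in CD8SP. In the long-read tables they were the collapsed isoforms assigned to the genes, 7 of 8289 in CD4SP and 14 of 9476 in CD8SP.

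The study asked how messenger RNA splicing differs between the CD4 and CD8 lineages. Both groups came from thymi of C57BL/6 mice aged 6 to 8 weeks, with 2 or 3 thymi pooled per sample. CD4SP cells were CD4+ CD8- TCRβ+ CD24- cells sorted after beads had removed CD8-bearing cells, and CD8SP cells were CD8+ CD4- TCRβ+ CD24- cells sorted after removal of CD4-bearing cells; no treatment or mutation was given to either. Each lineage had 1 PacBio long-read library and 4 short-read samples, of 10 samples in all, whose labels differ in a number of the form used for sequencing lanes and whose data stand in 1 Cufflinks table per lineage. Each lineage therefore has 1 short-read value, in FPKM (fragments per kilobase of transcript, scaled to the size of the library), with the interval Cufflinks gave it, and no replicate. The differences below have no replicate check and no p-value, and the number of reads behind them is unknown.

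The sorted lineages matched their labels. Cd4 was at 107 FPKM in CD4SP and 1.69 in CD8SP, and Cd8a was at 10.9 and 241 FPKM. The median gene was 1.16-fold higher in CD8SP, a log2 ratio of 0.21, and 84.6% of 9615 genes lay within a log2 ratio of 1. Among 5 markers of immature thymocytes, 2 were higher in CD4SP by the call defined below, and the list summed to 32.98 FPKM in CD4SP and 17.9 in CD8SP. Among 4 B cell markers, 1 was higher in CD8SP (Cd79b, 0.583 and 5.49 FPKM), while Cd79a was listed at 0 in both by summed transcripts and, by exon bases, was at 7.05 and 0.248 FPKM, higher in CD4SP. Myeloid and dendritic markers summed to 2.81 and 0.864 FPKM, NK and innate-like T cell markers to 3.89 and 0.290, stromal and endothelial markers to 23.6 and 15.9, and erythroid markers to 5.30 and 3.55, the CD4SP value first. Their part in the results below was not tested.

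Engagement of the T cell receptor releases calcium from stores and opens channels in the plasma membrane. Calcium-loaded calmodulin then activates calcineurin, a phosphatase made of a catalytic A subunit and a regulatory B subunit, which strips phosphates from NFAT proteins so that they enter the nucleus, and it activates the calmodulin-dependent kinases in parallel. In the thymus this pathway is known for its part in the positive selection of thymocytes, and calcineurin is the target of the drugs cyclosporin A and FK506.

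All 10 genes were expressed in both lineages, and none differed by the size used for a call. A call needed 1 FPKM or more in the higher lineage, a log2 ratio of FPKM + 0.1 of 1 or more in size, and summed intervals that did not overlap. None of the 10 met this, against 14.8% of the 9615 genes tested (9.99% called higher in CD8SP and 4.76% in CD4SP). With FPKM averaged over exon bases the count was also 0, against 10.9% of all genes. The log2 ratio of CD8SP over CD4SP was above 0 in 6 genes and below 0 in 4, and relative to the median shift of the libraries it was higher in 4, with a median of 0.08 against 0.22 over all genes tested. In bulk samples, fewer cells of a type and less RNA per cell cannot be told apart.

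The levels kept a similar order at the top and bottom. Nfatc3 was highest and Ppp3r1 next in both lineages, and Nfatc2 was lowest in both. In CD4SP the order between them ran Camk4, Ppp3cb, Camk2d, Ppp3ca, Ppp3cc, Nfatc1 and Camk2g. In CD8SP it ran Ppp3ca, Ppp3cc, Camk4, Nfatc1, Camk2g, Ppp3cb and Camk2d, so the catalytic subunits Ppp3ca and Ppp3cc stood above Camk4 in CD8SP and below it in CD4SP. Neighbours in these orders often had overlapping intervals, as Ppp3ca and Ppp3cc did in both lineages.

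**Figure D1:**
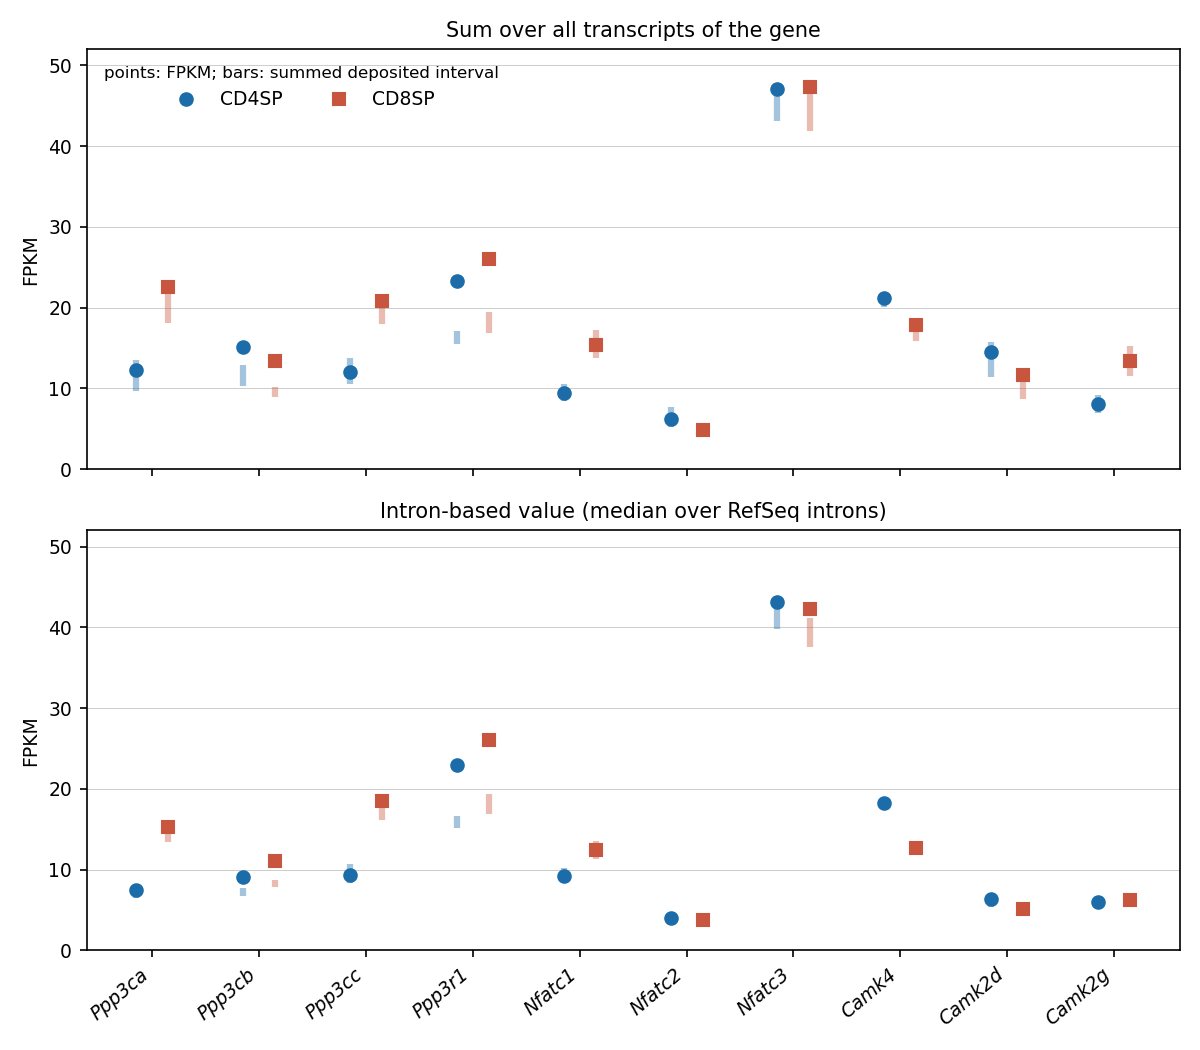
FPKM of the 10 genes in CD4SP (circles) and CD8SP (squares), as the sum over all transcripts (upper panel) and as the median over RefSeq introns (lower panel), with bars for the summed deposited intervals. Ppp3ca and Ppp3cc are higher in CD8SP in both panels, Nfatc3 is highest at 47.1 and 47.3 FPKM, and for Ppp3r1 and Ppp3cb the points lie above their own intervals.

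Among the catalytic calcineurin subunits, Ppp3ca and Ppp3cc were higher in CD8SP and Ppp3cb was close in both. Ppp3ca (chr3:136670124-136937727, GRCm38, plus strand), which encodes the α form of the subunit, was at 12.3 FPKM in CD4SP (interval 9.65 to 13.6) and 22.5 in CD8SP (18.1 to 23.5), 1.82-fold. Ppp3cc (chr14:70217865-70289471, minus strand), the γ form, was at 12.0 FPKM in CD4SP (10.6 to 13.8) and 20.8 in CD8SP (17.9 to 21.7), 1.73-fold. The intervals of these 2 genes did not overlap between lineages, as in 6 of the 10 genes and in 54.6% of all genes tested, and both folds stayed under the 2-fold size of a call. Ppp3cb (chr14:20499364-20546573, minus strand), which encodes the β form, was at 15.1 FPKM in CD4SP and 13.4 in CD8SP, and both values lay above their own deposited intervals (10.3 to 12.9 and 8.98 to 10.1), so the interval does not measure their precision.

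How much of each gene's FPKM sat on its full RefSeq transcript differed between the lineages, and this moved the folds. Cufflinks assigned part of each gene to assembled fragments, and RefSeq transcripts held 26.2% of Ppp3ca FPKM in CD4SP and 45.3% in CD8SP. Counted on its RefSeq transcript alone, Ppp3ca was at 3.23 and 10.2 FPKM, 3.16-fold higher in CD8SP, and was called. Ppp3cc was called by the same count, at 4.32 and 10.2 FPKM, 2.36-fold. In CD4SP, however, an assembled form with all 13 RefSeq introns of Ppp3cc held a further 3.44 FPKM. No assembled CD8SP form carried all 13. Counting this form with the RefSeq entry brings CD4SP to 7.75 FPKM against 10.2, under the 2-fold size of a call. The Ppp3cc call therefore rests on leaving that form out. With the libraries scaled to a median ratio of 0, which was added after the values were seen, Ppp3ca kept its call at a log2 ratio of 1.34 and Ppp3cc lost it at 0.94. Unscaled, these 2 were the calls among the 10 genes on RefSeq transcripts, where 20.6% of all 8316 genes tested were called (15.1% higher in CD8SP). Ppp3cb, with 54.8% and 82.8% of its FPKM on RefSeq, was at 8.29 and 11.1 FPKM, so its log2 ratio was 0.41 by RefSeq and -0.18 by the sum.

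A second measure, added after the values were seen, took for each RefSeq intron the summed FPKM of all transcripts that carry it. Each gene was given the median over its introns. Fragments that carry few introns weigh little in this median, but fragments that carry most introns of a gene still count in full. By this measure Ppp3ca was at 7.54 FPKM in CD4SP and 15.3 in CD8SP, 2.03-fold and the 1 call among the 10 genes, against 13.8% of 8743 genes (10.1% higher in CD8SP). This call was lost with scaled libraries, at a log2 ratio of 0.75. Ppp3cc was at 9.35 and 18.5 FPKM, a log2 ratio of 0.98, and Ppp3cb at 9.11 and 11.1, a log2 ratio of 0.28. The CD8SP median of Ppp3cc fell on an intron carried by an assembled 9-exon form at 6.70 FPKM. That form thus enters the sum and shares below. The 3 catalytic subunits together came to 26.0 FPKM in CD4SP and 44.9 in CD8SP. Ppp3cb supplied 35.0% of that sum in CD4SP and 24.6% in CD8SP, while Ppp3ca supplied 29.0% and 34.1% and Ppp3cc 36.0% and 41.3%.

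Along the transcripts, all 13 introns of Ppp3ca were higher in CD8SP, 8 of them by 2-fold or more, with log2 ratios from 0.78 to 1.63. All 13 introns of Ppp3cc were also higher in CD8SP, 5 of them by 2-fold or more, from 0.17 to 1.21. The introns of a gene are not separate measurements, since its RefSeq transcript carries all 13 of them. The highest ratio of Ppp3ca, 1.63, was at introns 12 and 13, which the RefSeq transcript alone carried in both lineages. Introns 1 to 8 of Ppp3cc were at 18.1 to 19.8 FPKM in CD8SP, and introns 9 to 13 at 11.2 to 12.3, because an assembled form of 9 exons at 6.70 FPKM ended before them. All introns were higher in CD8SP in 42.1% of the 6680 genes with 5 or more introns at 1 FPKM, so this direction along a whole gene was common in these libraries. All introns lay above the median shift between the libraries in 27.7% of those genes, as in Ppp3ca (13 of 13) but not in Ppp3cc (11 of 13).

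**Figure D2:**
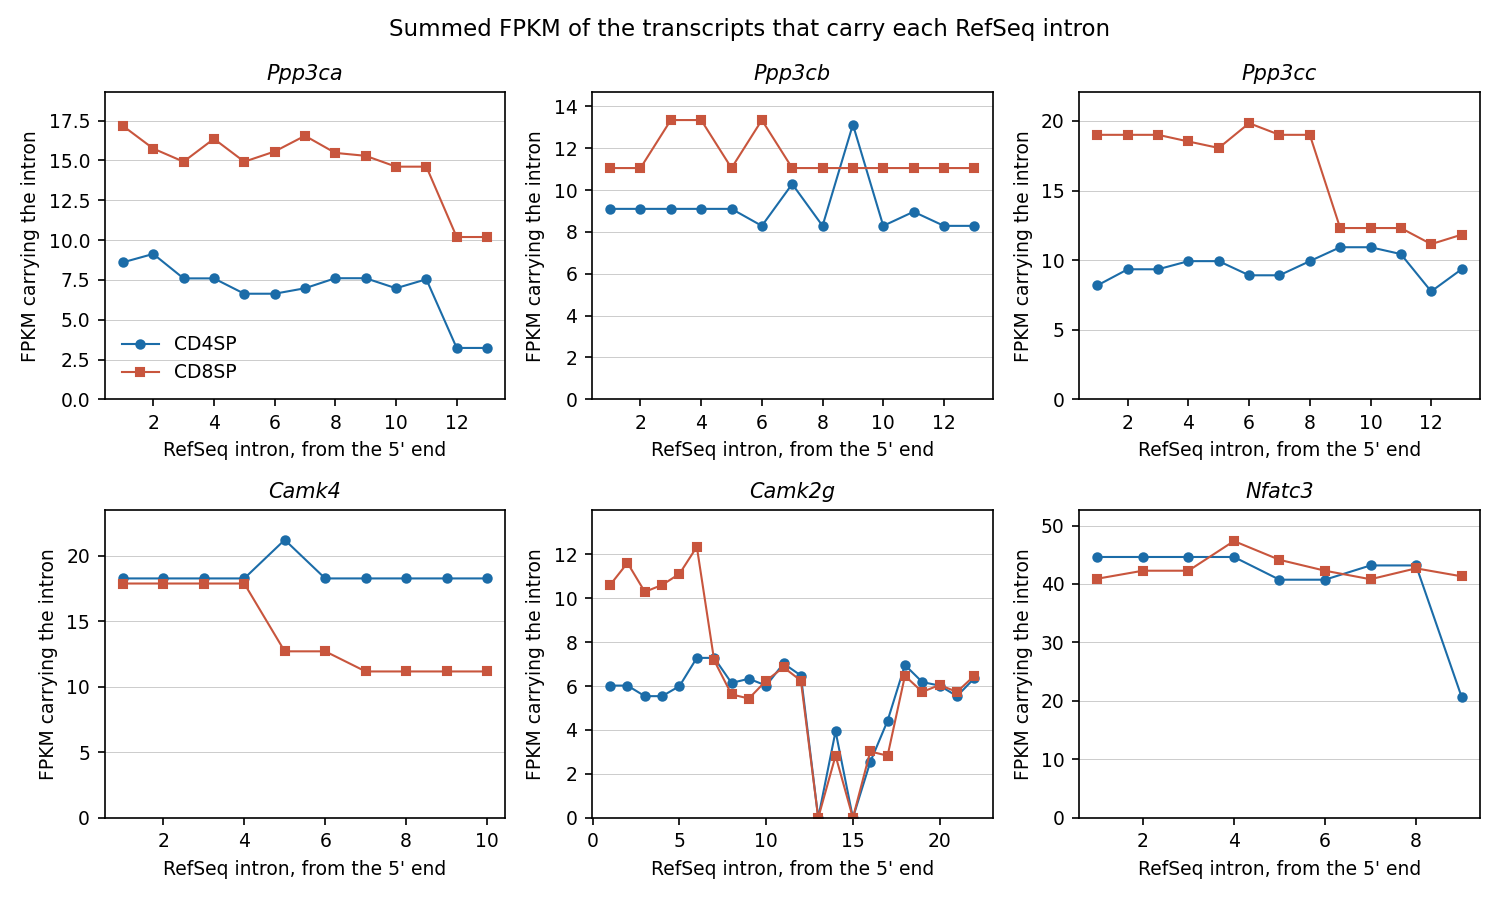
Summed FPKM of the transcripts that carry each RefSeq intron, numbered from the 5' end, in CD4SP (circles) and CD8SP (squares) for 6 of the genes. Ppp3ca is higher in CD8SP at all 13 introns, Ppp3cc, Camk4 and Camk2g show steps in CD8SP where an assembled 5' form ends, and the last intron of Nfatc3 stands at 20.7 FPKM in CD4SP against 41.3 in CD8SP.

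The 3 catalytic genes share an exon of 30 bases, the exon numbered 13 of 14 in the RefSeq transcript of each, which adds 10 codons between the calmodulin-binding region and the autoinhibitory segment at the C-terminal side of the protein. It is shown here because its use in Ppp3ca differed between the lineages, and it was chosen after its values were seen. The sequences below, from GENCODE release M21 transcripts on GRCm38, run 5′ to 3′ on the coding strand, and capitals mark the 13 positions at which all 3 genes have the same base. The exons lie at chr3:136932011-136932040 (Ppp3ca), chr14:20503247-20503276 (Ppp3cb) and chr14:70220017-70220046 (Ppp3cc).
Ppp3ca 30-base exon: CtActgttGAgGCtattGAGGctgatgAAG
Ppp3cb 30-base exon: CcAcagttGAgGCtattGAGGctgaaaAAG
Ppp3cc 30-base exon: CcAaacaaGAaGCcgcaGAGGagcgggAAG
Ppp3ca and Ppp3cb were identical at 26 of the 30 bases (86.7%), while Ppp3cc matched Ppp3ca at 14 (46.7%) and Ppp3cb at 15 (50%).

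In Ppp3ca the form with the exon was higher in CD8SP and the form without it was level. The form with the exon was at 3.23 FPKM in CD4SP and 10.2 in CD8SP. It was the RefSeq transcript alone in each lineage. The RefSeq call of Ppp3ca, its ratio at introns 12 and 13 and this exon share therefore rest on the same values and are not separate changes. The form without the exon, which GENCODE lists and which Cufflinks assembled in each library, was at 3.75 and 3.78 FPKM, a log2 ratio of 0.01. The exon was therefore in 46.3% of the FPKM of both forms in CD4SP (bounds from the deposited intervals 40.9 to 51.7) and in 73.0% in CD8SP (69.8 to 77.1), a difference of 26.7 percentage points. GENCODE gives proteins of 521 codons with the exon and 511 without it. In CD4SP the value without the exon was the sum of a 13-exon form of 5024 bases at 2.74 FPKM and a 7-exon form of 4022 bases at 1.004 FPKM, and in CD8SP it was a single 13-exon form of 2151 bases. FPKM is per length, and the RefSeq form with the exon has 2194 bases in both tables, so these lengths move with the share; their part in it was not tested.

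In Ppp3cb and Ppp3cc most FPKM carried the exon. The Ppp3cb form without it stood at 0.675 FPKM in CD4SP and was not listed in CD8SP, which left the exon in 92.5% and 100% of the FPKM. The Ppp3cc form without it stood at 1.09 FPKM in CD4SP and was not listed in CD8SP, giving 88.2% and 100%. In each of these genes the form without the exon was 1 assembled form in CD4SP, of 5985 bases in Ppp3cb and 2695 in Ppp3cc. GENCODE lists no Ppp3cc transcript without the exon. The 100% in CD8SP means that no such form was assembled there, so no shared direction is drawn over the 3 genes. Only in Ppp3ca was the difference past 20 points.

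The regulatory subunit Ppp3r1 (chr11:17159263-17200375, plus strand) encodes the calcium-binding calcineurin B, with which the catalytic subunits form the active phosphatase. It was at 23.3 FPKM in CD4SP and 26.0 in CD8SP, with a log2 ratio of 0.16, and was the highest calcineurin gene in both. Its RefSeq transcript was at 22.4 and 21.5 FPKM, and the rest of the CD8SP value was an assembled 5-exon form at 4.56 FPKM. Both summed values lay above their own intervals (15.5 to 17.1 and 16.8 to 19.4), which overlapped between the lineages.

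Among the NFAT genes, Nfatc3 was far the highest in both lineages, Nfatc1 was higher in CD8SP, and Nfatc2 was lowest. Nfatc3 (chr8:106058840-106130537, plus strand), an NFAT factor known for its part in thymocyte selection, was at 47.1 FPKM in CD4SP (43.1 to 47.1) and 47.3 in CD8SP, the latter above its own interval of 41.9 to 46.8. By the intron-based measure it supplied 76.6% of the FPKM of the 3 NFAT genes in CD4SP and 72.4% in CD8SP. Nfatc1 supplied 16.3% and 21.2%, and Nfatc2 7.13% and 6.45%.

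Although the Nfatc3 level was close in both, its 3' end was assembled differently. In CD4SP a 9-exon form at 20.01 FPKM (19.3 to 20.7) ended at position 106108957, inside exon 9 of the RefSeq transcript (106108125 to 106109129, 1005 bases), of which it held 833 bases. It was chosen after its values were seen. The last intron of Nfatc3 was accordingly at 20.7 FPKM in CD4SP and 41.3 in CD8SP, while its other 8 introns lay between 40.7 and 47.3 FPKM in either lineage. In CD8SP the counterpart was a 10-exon form at 14.8 FPKM with the RefSeq introns. RefSeq transcripts held 44.0% of Nfatc3 FPKM in CD4SP and 52.2% in CD8SP.

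Nfatc1 (chr18:80606205-80713071, minus strand) was at 9.41 FPKM in CD4SP (8.48 to 10.5) and 15.4 in CD8SP (13.8 to 17.2), 1.64-fold, with intervals that did not overlap. By introns it was at 9.18 and 12.4 FPKM, a log2 ratio of 0.43, and all 11 introns were higher in CD8SP. Nfatc1 is known to be made from an upstream and a downstream first exon and with an early or a late 3' end, and a short form from the upstream first exon is known to build up in stimulated lymphocytes. RefSeq holds 6 such isoforms.

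The isoform with the downstream first exon and the early end (8 exons) was at 1.91 FPKM in CD4SP and 4.52 in CD8SP, or 24.2% and 39.2% of the gene's RefSeq FPKM. The longer isoform of 10 exons with the same first exon and the shorter form of the alternative exon was at 3.05 and 2.74 FPKM, or 38.5% and 23.8%. Its counterpart with the longer form of that exon was at 2.12 and 2.94 FPKM. The short isoform thus led in CD8SP and the 10-exon isoform in CD4SP, and no share moved by 20 points.

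The upstream first exon was little used in either lineage. Of its 3 RefSeq isoforms, the 8-exon form was at 0.831 FPKM in CD4SP and 0.464 in CD8SP, and the other two were listed at 0 in CD4SP and stood at 0.381 and 0.469 in CD8SP. Their summed share of RefSeq FPKM was 10.5% in CD4SP (8.45 to 13.7) and 11.4% in CD8SP (8.93 to 14.1). With assembled forms counted, the upstream first exon took 10.5% and 15.1%. All RefSeq isoforms with the early end together were at 2.75 and 4.99 FPKM, 34.7% (30.3 to 39.6) and 43.3% (39.1 to 47.6). The longer form of the alternative exon, which adds 289 bases at a 5' splice site, took 41.0% in CD4SP and 49.6% in CD8SP.

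**Figure D3:**
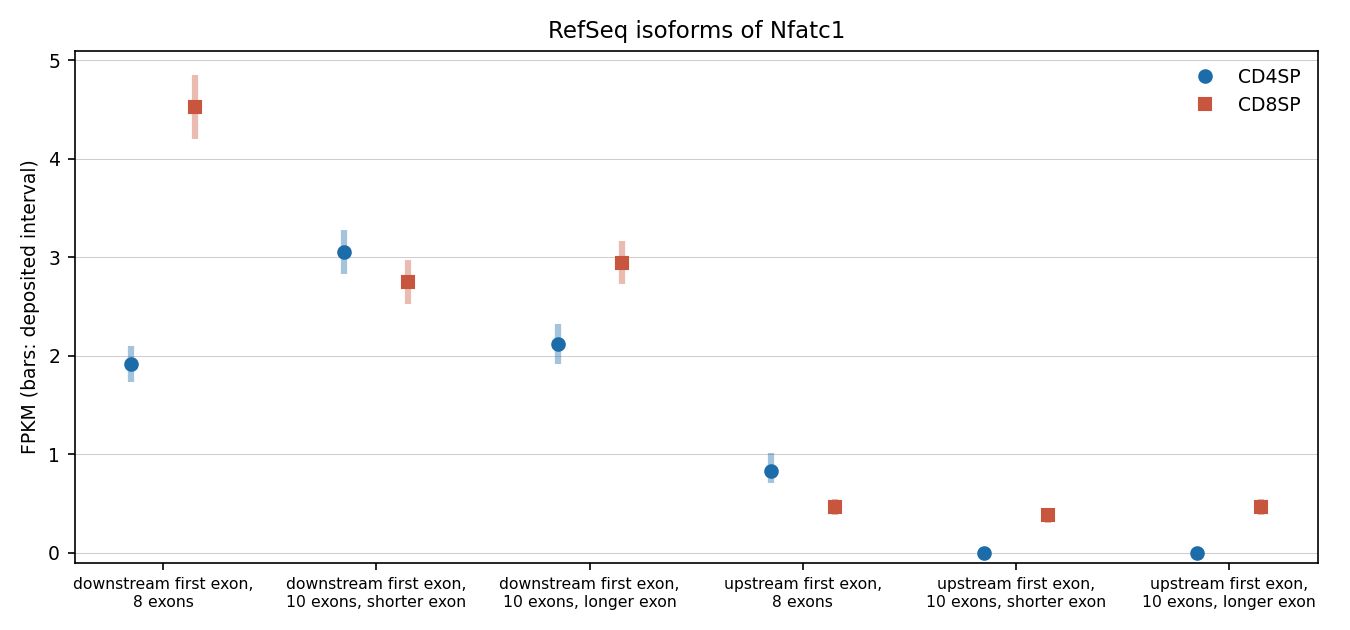
FPKM of the 6 RefSeq isoforms of Nfatc1 in CD4SP (circles) and CD8SP (squares), with bars for the deposited intervals, named by first exon, number of exons and form of the alternative exon. The 8-exon isoform with the downstream first exon stands at 1.91 FPKM in CD4SP and 4.52 in CD8SP, and the 3 isoforms with the upstream first exon are below 1 FPKM in both.

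Nfatc2 (chr2:168476410-168601657, minus strand) was at 6.28 FPKM in CD4SP (5.28 to 7.68) and 4.89 in CD8SP (4.18 to 5.65), with overlapping intervals and a log2 ratio of -0.35. Its annotated event is an exon of 86 bases, 10 of 11 in the GENCODE transcript, at chr2:168486686-168486771, which carries its own stop codon. The coding bases of the exon are shown because the exon sets the C-terminus, with the stop codon in capitals.
Nfatc2 86-base exon, coding part: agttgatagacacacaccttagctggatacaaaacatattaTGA
GENCODE proteins have 923 codons with it and 927 without. The exon was in 65.1% of the FPKM in CD4SP (57.1 to 71.9) and in 72.9% in CD8SP (68.2 to 77.4), and the bounds overlapped. The RefSeq isoform with the exon was at 1.69 and 1.44 FPKM, and the isoform without it at 0.530 and 0.534.

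Among the kinases, Camk4 was higher in CD4SP from its intron 5 to its 3' end and close in both lineages before that. Camk2d was slightly higher in CD4SP. Camk2g was higher in CD8SP by its sum, with a clear difference at its first 6 introns and little at most others. Camk4 (chr18:32934931-33191228, plus strand) encodes a nuclear kinase of lymphocytes and neurons that phosphorylates CREB. It was at 21.2 FPKM in CD4SP and 17.9 in CD8SP (15.8 to 18.5), with the CD4SP value just above its own interval of 20.1 to 21.1. On its RefSeq transcript Camk4 was at 18.3 and 11.2 FPKM, 1.64-fold higher in CD4SP. All 10 of its introns were higher in CD4SP, which held in 9.85% of the genes with 5 or more introns. At introns 1 to 4 the log2 ratio was only -0.03, with overlapping intervals. The introns are not separate measurements, since in CD4SP the RefSeq transcript alone set the value of all but intron 5.

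The size of that difference varied along Camk4. Introns 1 to 4 were at 18.3 FPKM in CD4SP and 17.9 in CD8SP, and introns 7 to 10 at 18.3 and 11.2. An assembled form of 6 exons at 5.17 FPKM, 939 bases long and covering the 5' part of the gene, made up most of the step in CD8SP, and a 7-exon form at 1.54 FPKM the rest. Camk4 held 59.6% of the intron-based FPKM of the 3 kinases in CD4SP and 52.6% in CD8SP.

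Camk2g (chr14:20734875-20794088, minus strand) and Camk2d (chr3:126596302-126846326, plus strand) encode the γ and δ chains of calmodulin kinase II, which assembles into large multi-chain enzymes. Camk2g was at 8.10 FPKM in CD4SP (7.01 to 9.20) and 13.4 in CD8SP (11.5 to 15.2), 1.65-fold. An assembled 7-exon form of 696 bases at 5.17 FPKM, listed in CD8SP alone, accounted for nearly all of this. Introns 1 to 6 were at 5.54 to 7.28 FPKM in CD4SP and 10.3 to 12.3 in CD8SP, whereas introns 7 to 12 were at 6.02 to 7.28 and 5.43 to 7.17. By the intron median Camk2g was at 6.02 and 6.25 FPKM, a log2 ratio of 0.05, with 11 of 20 introns higher in CD8SP and 9 in CD4SP, and on RefSeq transcripts its ratio was -0.13. Camk2d was at 14.5 FPKM in CD4SP (11.4 to 15.8) and 11.7 in CD8SP (8.72 to 12.6), a log2 ratio of -0.31 with overlapping intervals, and 15 of its 20 introns at 1 FPKM or more were higher in CD4SP.

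The kinase II chains are varied by alternative exons, and these made up 4 of the 7 annotated events tested in the 10 genes. An event was called where the share of FPKM with a form differed by 20 percentage points or more and both forms summed to at least 1 FPKM in each lineage. Of the 7 events, with both forms in RefSeq, 1 was called, against 17.2% of 2646 such events over all genes. It was the 89-base exon of Camk2d at chr3:126841485-126841573, which carries a stop codon and gives GENCODE proteins that are 21 codons longer (533 against 512). Its sequence is shown because it sets the end of the protein, with the stop in capitals.
Camk2d 89-base exon: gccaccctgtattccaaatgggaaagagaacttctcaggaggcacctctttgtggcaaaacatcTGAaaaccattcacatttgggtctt
The exon was in 57.8% of the FPKM in CD4SP (51.7 to 63.6) and in 37.7% in CD8SP (31.7 to 44.7), 20.1 points apart and so just past the size used for a call. Forms with it were at 3.12 and 2.004 FPKM, and forms without it at 2.28 and 3.31. With RefSeq forms alone the shares were 59.6% and 47.1%, which was not a call.

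Camk2d also has a pair of mutually exclusive exons of 73 bases within the kinase domain, at chr3:126770785-126770857 and chr3:126771774-126771846. They are shown because forms that splice in 1 of them alone all held the upstream exon, and capitals mark the bases at which they differ.
Camk2d upstream exon: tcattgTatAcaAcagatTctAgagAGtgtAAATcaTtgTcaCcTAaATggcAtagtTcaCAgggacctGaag
Camk2d downstream exon: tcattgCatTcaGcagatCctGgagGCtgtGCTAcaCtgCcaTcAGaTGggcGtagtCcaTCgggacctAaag
They were identical at 50 of 73 bases (68.5%). Forms that splice in the upstream exon and skip the other were at 5.98 FPKM in CD4SP and 5.46 in CD8SP, and forms that splice in the downstream exon and skip the upstream one were listed at 0 in both, so the upstream exon took 100% of the cleanly exclusive forms. The downstream exon was not absent, since assembled forms that keep the stretch between the exons and splice from the 5' site of the downstream exon had 1.48 FPKM in CD4SP against 1.67 in CD8SP, or 17.7% and 23.4% against the 5' site of the upstream exon. Of these forms, 1 in CD4SP at 1.09 FPKM and 1 in CD8SP at 1.67 FPKM also retained the whole intron before the upstream exon. The shares of 17.7% and 23.4% therefore include forms unspliced through both exons and do not measure choice of the downstream exon. All these assembled forms were chosen after their values were seen.

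Camk2g has 2 annotated cassette exons in the variable region that links the kinase domain to the association domain. The exon of 69 bases, at chr14:20745792-20745860, adds 23 codons. The exon of 33 bases, at chr14:20747819-20747851, adds 11 codons and is known to encode a nuclear localization signal. Camk2d has a matching exon of 33 bases at chr3:126802937-126802969. They are shown because the first varied between the lineages and the others were not used.
Camk2g 69-base exon: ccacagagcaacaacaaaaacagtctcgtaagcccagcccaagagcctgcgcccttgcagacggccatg
Camk2g 33-base exon: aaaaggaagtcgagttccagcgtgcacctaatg
Camk2d 33-base exon: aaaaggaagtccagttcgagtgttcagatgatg
The 33-base exons of the 2 genes were identical at 26 bases (78.8%). The 69-base exon was in 60.8% of the Camk2g FPKM in CD4SP (54.8 to 66.9) and in 48.4% in CD8SP (42.4 to 54.5), and the bounds did not overlap, although the difference of 12.5 points was under the size of a call. This exon pointed the same way as the 89-base Camk2d exon, with more inclusion in CD4SP. The Ppp3ca 30-base exon and the Nfatc2 86-base exon pointed the other way, so no shared direction is drawn. The 33-base exon of Camk2g was listed at 0 FPKM in both lineages, and that of Camk2d was in none of the listed transcripts.

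**Figure D4:**
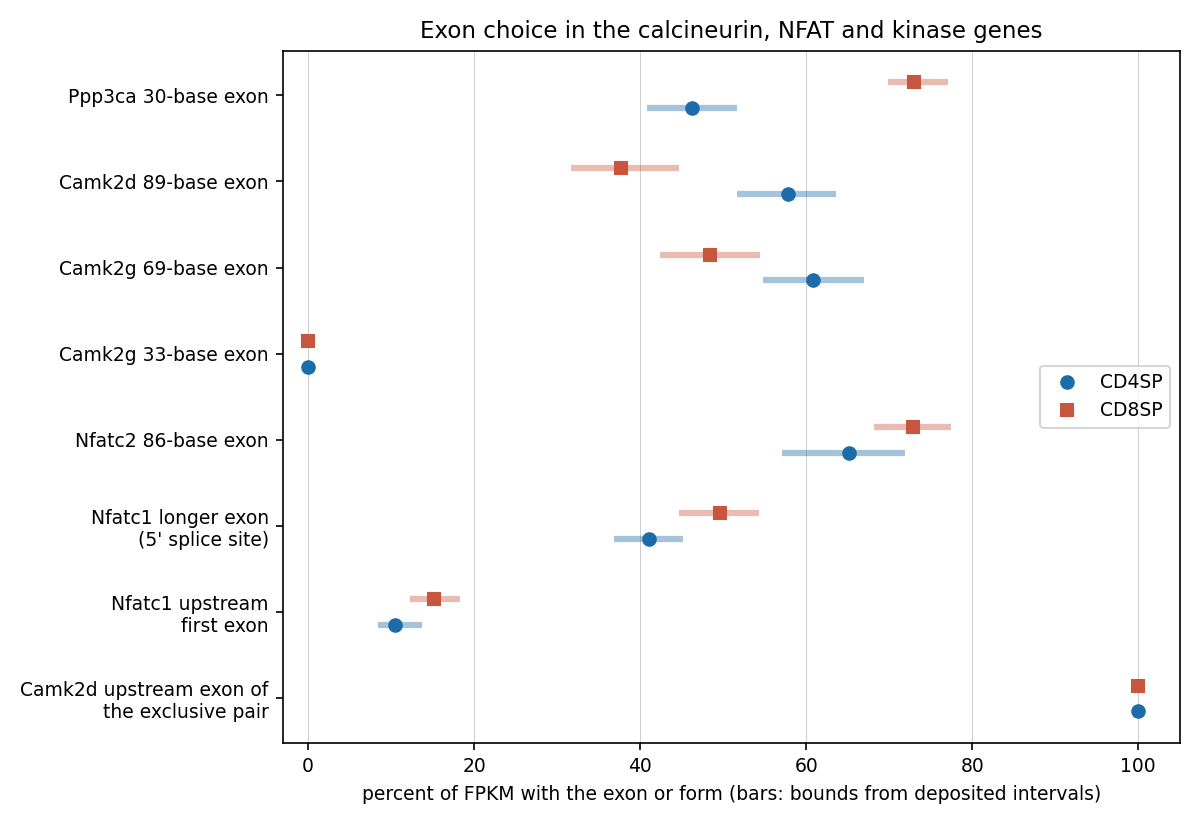
Percent of FPKM with the exon or form named on the left, in CD4SP (circles) and CD8SP (squares), with bars for the bounds from the deposited intervals. The Ppp3ca 30-base exon (46.3% and 73.0%) and the Camk2d 89-base exon (57.8% and 37.7%) are 20 points or more apart, and in both lineages the Camk2g 33-base exon is at 0% and the Camk2d upstream exon at 100% of the forms that splice in 1 exon of the pair alone.

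With assembled forms counted, the 10 genes held 136 events, of which 97 were tested and 11 called (11.3%), 5 with more of the longer or upstream form in CD8SP and 6 in CD4SP, against 19.2% of all events. Where both forms were listed in both lineages, 29 were tested and 4 called, against 12.7% of all such events. These 4 were the Ppp3ca and Camk2d exons above, a 5' splice site of Camk2d at position 126840366 (29.5% in CD4SP and 9.51% in CD8SP) and a retained intron of Ppp3cc at chr14:70223932-70224309 (45.6% and 22.8%). The last 2 were chosen after their values were seen. Both Camk2d events are measured against the same forms, those that skip the 89-base exon (2.28 and 3.31 FPKM), so they are not separate changes. None of the 16 RefSeq isoform shares tested moved by 20 points, against 15.6% over all genes.

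The wider pathway was described over 7 lists with 103 genes besides the 10, of which 82 were tested. Of these, 12 were called (14.6%), 2 higher in CD8SP and 10 in CD4SP. The count was close to the 14.8% over all genes. It was divided differently between the directions, which over all genes were 9.99% higher in CD8SP and 4.76% in CD4SP. The lists were written with earlier results of these data known, and they hold genes of the CD4 lineage. This division is therefore not a finding about the pathway. Of the 10 higher in CD4SP, 8 were NFAT partner factors or target genes. The median log2 ratio of all genes tested, for comparison with each list below, was 0.22.

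Upstream of the 10 genes the levels were mostly close by summed FPKM. In the list of 14 genes of the calcium signal, 13 were tested and 1 was called, Orai3, a calcium channel subunit, at 2.31 FPKM in CD4SP and 5.84 in CD8SP (2.53-fold), and the list's median was 0.09. Among 15 genes of calmodulin, calcineurin regulators and immunophilins, 10 were tested and 1 was called, with a median of 0.39. It was Fkbp1a, the immunophilin FKBP12 that binds FK506, at 22.0 FPKM in CD4SP and 5.70 in CD8SP, 3.86-fold higher in CD4SP. The other immunophilin of note, Ppia, was listed at 0.0463 and 0.224 FPKM, below 1 in both, and was not tested. Whether these listed values reflect its true level was also not tested. By the intron-based measure, Orai2, at 3.73 FPKM in CD4SP and 9.88 in CD8SP, was also called higher in CD8SP. Rcan3, a calcineurin regulator, was also called by introns, higher in CD4SP at 9.01 FPKM against 4.27 in CD8SP. Orai2 and Rcan3 were named after their values were seen.

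Few regulators of NFAT and the kinases were called. Of 16 genes for other NFAT proteins, NFAT kinases and retention or export factors, 12 were tested and none was called, with a median of -0.08. The 2 highest were the NFAT kinase Csnk1a1 at 110 and 91.6 FPKM and the nuclear exporter Xpo1 at 51.7 and 48.9 FPKM. Of 15 genes for other calmodulin kinases and their regulators, a list that includes Camk2d, Camk2g and Camk4, 10 were tested and 1 was called. This was Dapk1, a death-associated kinase, at 7.16 FPKM in CD4SP and 2.05 in CD8SP, 3.50-fold, and the list's median was -0.03. With scaled libraries, Nfat5 (13.2 and 6.77 FPKM) and Camk1d (11.6 and 5.95), named here after their values were seen, were also called higher in CD4SP. Of 16 nuclear targets, 15 were tested and none was called, with a median of 0.17, and the 2 that reached the highest value in either lineage were the deacetylase Hdac7 at 15.5 FPKM in CD4SP and 29.6 in CD8SP and the CREB factor Creb1 at 24.1 and 26.6.

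Most of the calls lay in the lists of NFAT partners and target genes, and most were higher in CD4SP. Since these lists were written with earlier results of these data known, their place and direction are not a finding about the pathway. Of 13 NFAT partner factors, 11 were tested and 5 called, with a median of -0.49. Those higher in CD4SP were Gata3, a factor of the CD4 lineage, at 15.3 and 4.004 FPKM, Irf4 at 11.8 and 3.10, Maf at 1.28 and 0.195, and Foxp3, the factor of regulatory T cells, at 2.18 and 0.318. Jund, an AP-1 subunit, was higher in CD8SP at 15.2 and 31.1 FPKM, 2.04-fold, and was not called after the libraries were scaled to a median ratio of 0.

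Of 18 genes induced through NFAT in T cells, 15 were tested and 4 called, all higher in CD4SP, with a median of -0.48. They were Cd40lg, the CD40 ligand of helper cells, at 13.0 FPKM in CD4SP and 0.418 in CD8SP, Il2ra, the α chain of the interleukin-2 receptor, at 3.22 and 0.366, Fasl, a death ligand, at 1.5 and 0.111, and Nr4a1, an early receptor-response gene, at 25.6 and 10.7. Foxp3 and Il2ra also mark regulatory T cells, which the CD4SP sort does not remove, and Cd40lg is also a marker of the CD4 lineage. Their part in these list counts was not tested. Of the 10 calcineurin, NFAT and kinase genes themselves, 4 had a log2 ratio below 0.

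The long-read libraries recovered few isoforms of these genes and no complete one. In CD4SP 7 isoforms from 3 genes were listed, 0.0844% of the library's isoforms (95% exact Clopper-Pearson interval 0.0340 to 0.174), and in CD8SP 14 from 7 genes, 0.148% (0.0808 to 0.248). By gene the counts in CD4SP and CD8SP were 3 and 6 for Ppp3ca, 3 and 3 for Nfatc3, and 1 and 1 for Camk4. Ppp3r1, Nfatc1, Camk2d and Camk2g had 1 each in CD8SP and none in CD4SP, and Ppp3cb, Ppp3cc and Nfatc2 had none in either. A 2-sided Fisher's exact test of these shares gave p = 0.276 (Benjamini-Hochberg adjusted p = 0.552 over 2 tests), which compares these libraries and not the lineages, and the intervals cover counting error only.

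None of the isoforms was a full splice match, against 7.87% and 8.42% of all isoforms; taking 3 counts as the limit of a count of 0, 0 of 7 allows a share of up to 42.9% and 0 of 14 up to 21.4%, and the exact upper bounds are 41.0% and 23.2%. All 7 isoforms in CD4SP and 13 of 14 in CD8SP had a single exon. The exception was a Camk2g isoform of 2 exons and 2139 bases in CD8SP with an open reading frame of 160 codons. In 6 of 7 isoforms in CD4SP (85.7%, 42.1 to 99.6) and 9 of 14 in CD8SP (64.3%, 35.1 to 87.2), the genome just after the 3' end was 60% or more A, a stretch on which the oligo-dT primer of complementary DNA synthesis can start inside a transcript. The corresponding shares over all isoforms were 64.0% and 60.1%, and the exact test between the libraries gave p = 0.613 (adjusted p = 0.613).

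The same places recurred in both libraries. In 6 pairs of isoforms both ends lay within 20 bases between CD4SP and CD8SP, 3 pairs in Ppp3ca, 2 in Nfatc3 and 1 in Camk4. Those in Ppp3ca measured 2853 and 2870 bases, 2671 and 2679 bases, and 1605 and 1597 bases, and the Camk4 pair 1031 and 1030 bases. In all pairs but the last of Ppp3ca, the genome after the 3' end was 70% to 90% A in both libraries. The part of priming on such sequence in the recurrence was not tested. The last of the Ppp3ca pairs lay in the final exon, ending 882 and 887 bases before the annotated end in sequence with 30% and 40% A. CD8SP had 2 further isoforms there, ending 10 and 298 bases before the annotated end. The Ppp3r1 isoform, of 1653 bases, ended 1 base from the annotated end with 20% A.

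In Nfatc3 1 recurring isoform overlapped the exon in which the assembled CD4SP form ended. The isoform of 2760 bases in CD4SP, paired with that of 2766 bases in CD8SP, held an open reading frame of 356 codons that ran 71 bases past the end of exon 9 to position 106109200. Both isoforms of the pair had a single exon, and the genome after their 3' ends was 80% and 85% A. The pair was present in both libraries, while the short-read form that ended in that exon was assembled in CD4SP. Isoforms on the opposite strand, which were not counted above, numbered 2 and 2 at Ppp3ca and 3 and 4 at Nfatc3 in CD4SP and CD8SP.

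**Figure D5:**
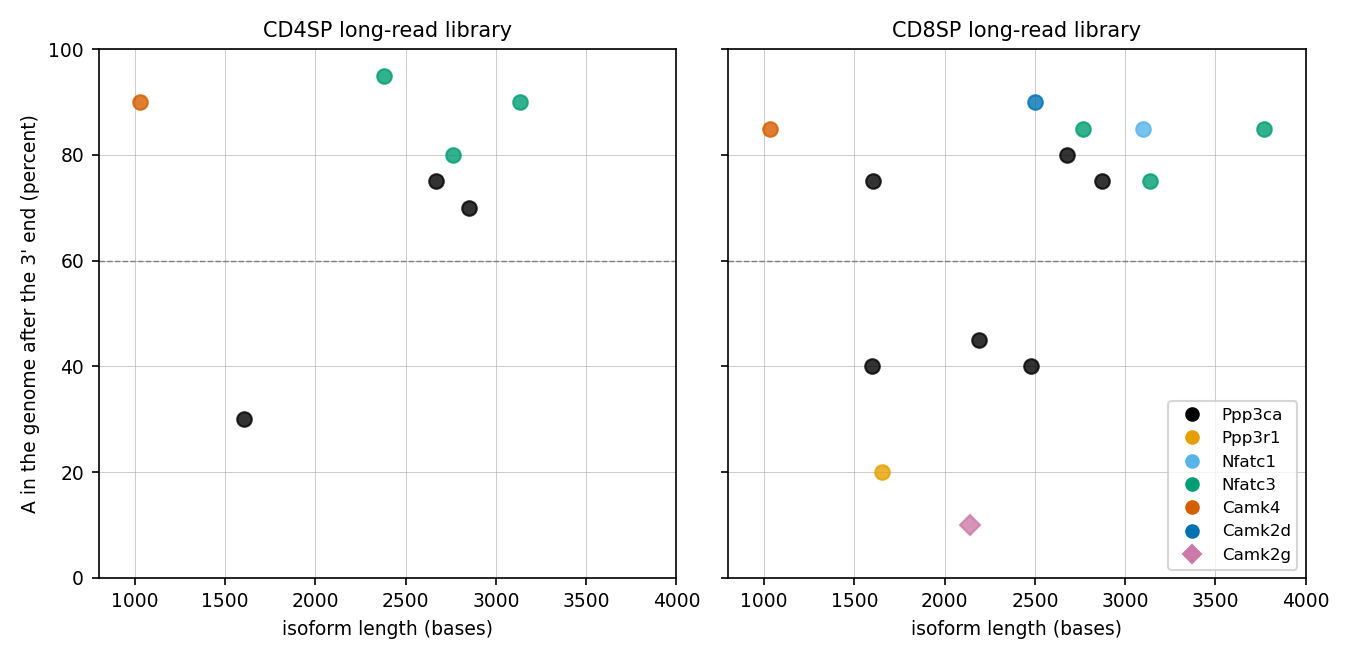
Length in bases of each long-read isoform of the 10 genes against the percent of A in the genome after its 3' end, in the CD4SP (left) and CD8SP (right) libraries, colored by gene, with circles for single-exon isoforms and a diamond for the 2-exon Camk2g isoform. Above the dashed line at 60% lie 6 of 7 isoforms in CD4SP and 9 of 14 in CD8SP.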

How the data were processed

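Per the submitters' processing notes, the reads were handled on GRCm38 with tools that include GSNAP, TopHat2 2.0.14, Cufflinks 2.1.1 and RSEM 1.3.1, with no role given. The authors deposited 1 Cufflinks transcript table per lineage with FPKM and intervals, per the file headers, and 1 long-read isoform classification per library, whose percent of A after the 3' end is the authors' value. The unit of a further deposited table of TPM was not used, since its identifiers were not paired with genes. Library depth is not given in these tables.

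Transcripts were matched to genes with the RefSeq table of GRCm38.p6 (29447 of 30589 identifiers). Gene FPKM is the sum over RefSeq and assembled spliced transcripts, and its interval the sum of theirs. In 4.89% and 5.19% of RefSeq transcripts the FPKM lay outside its own interval. Exon sequences and gene positions came from GENCODE release M21. Event shares are ratios of summed FPKM. Calls used 1 FPKM, a pseudocount of 0.1, a log2 ratio of 1 and 20 percentage points; a log2 ratio understates the change of low genes. The text names all 10 genes, their annotated events and, per list, the called genes or the 2 highest. Members and lists were chosen with earlier results of these data known. The alternatives are in the closing section. Scripts ran in Python 3.11.15 with SciPy 1.17.1, NumPy 2.4.6 and matplotlib 3.10.9 and were tested on simulated data.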

Additional observations from a re-analysis of the deposited data

How the results depend on the processing

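Of the 10 genes, 0 were called, and this held with pseudocounts of 0.01 and 1, without the filter on low values, with a filter of 5 FPKM, with scaled libraries, with exon-based values and with calls by size alone. A log2 size of 0.58 called 4 (Ppp3ca, Ppp3cc, Nfatc1 and Camk2g, all higher in CD8SP), RefSeq transcripts alone called 2, and the intron-based value, added after the data were seen, called 1. Scaling the libraries as well, also added then, left 1 (Ppp3ca) by RefSeq and 0 by introns. The annotated events called went from 1 to 2 at 10 points (adding the Camk2g 69-base exon), to 0 at 30 points and to 0 with RefSeq forms alone; over all events, 11 fell to 4 where both forms were in both files. The isoform shares called went from 0 to 1 when assembled FPKM was added to the denominator (a Camk2g isoform). Long-read isoforms went from 7 to 1 in CD4SP and from 14 to 5 in CD8SP without those at 60% or more A, and to 0 and 1 with multi-exon isoforms only; fewer isoforms counted accounts for these. The cause of the other differences was not tested. The calls in the pathway lists stayed between 10 and 14, against 12. Without read counts, differences under the intervals were not detectable. No paired analysis was possible because the short-read samples of a lineage, whose numbers have the form of lanes, stand together in 1 table, and no result of theirs comes from a test.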
